A study of Mus musculus with 6 samples.

Results

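GABAergic interneuron and ganglionic eminence genes were followed one library at a time in mouse cortex at embryonic day 18.5 (E18.5). The set holds 9 genes, chosen by symbol from the 59484 features of the table: *Nkx2-1*, *Dlx1*, *Dlx2*, *Dlx5*, *Lhx6*, *Gad1*, *Gad2*, *Sst* and *Npy*. All 9 were found, and all 9 passed the filter set for testing, 10 or more normalized counts on average over the 6 libraries. PolyA+ RNA was sequenced from the cortex of 3 wild-type (wt) and 3 Sam68:Slm2 knockout (dKO) embryos. The dKO embryos lack 2 paralogous RNA-binding splicing factors, Sam68 and SLM2, in the whole animal. All mice were C57BL/6, and the sources used here name no treatment, Cre driver or further allele for either group. The normalized count is a read count divided by the size factor of its library.

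Most GABAergic neurons of the cerebral cortex are born outside it, in the ganglionic eminences of the ventral forebrain, and reach it by tangential migration. Nkx2-1 specifies the medial eminence, Lhx6 acts downstream of it, and the Dlx homeodomain factors act across all the eminences, which also give rise to the projection neurons of the striatum beneath the cortex. Cortical interneurons switch off *Nkx2-1* as they migrate, whereas cells that remain in the ventral forebrain can keep it.

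None of the 9 genes differed between the genotypes at an adjusted *P*-value under 0.05 (limma on log2(normalized count + 1), Benjamini-Hochberg adjustment), beside 19 of 18970 features tested (0.10%). At an unadjusted *P*-value under 0.05 from limma the count was also 0 of 9, beside 11.5% of all features. The mean was higher in dKO cortex for 4 genes and lower for 5, with a median log2 fold change of -0.02 against 0.00 over all features. The larger differences lay between embryos of the same genotype. For *Nkx2-1*, *Dlx1*, *Dlx5*, *Gad1*, *Gad2* and *Sst*, 6 of the 9 genes (66.7%), wt replicate 3 was the highest wt library and dKO replicate 2 the highest dKO library, beside 13.9% of all features. *Dlx2*, *Lhx6* and *Npy* did not have this order. The same libraries had the highest levels of most striatal markers. In RNA of whole tissue, more cells of a type and more RNA per cell cannot be told apart.

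**Figure D1:**
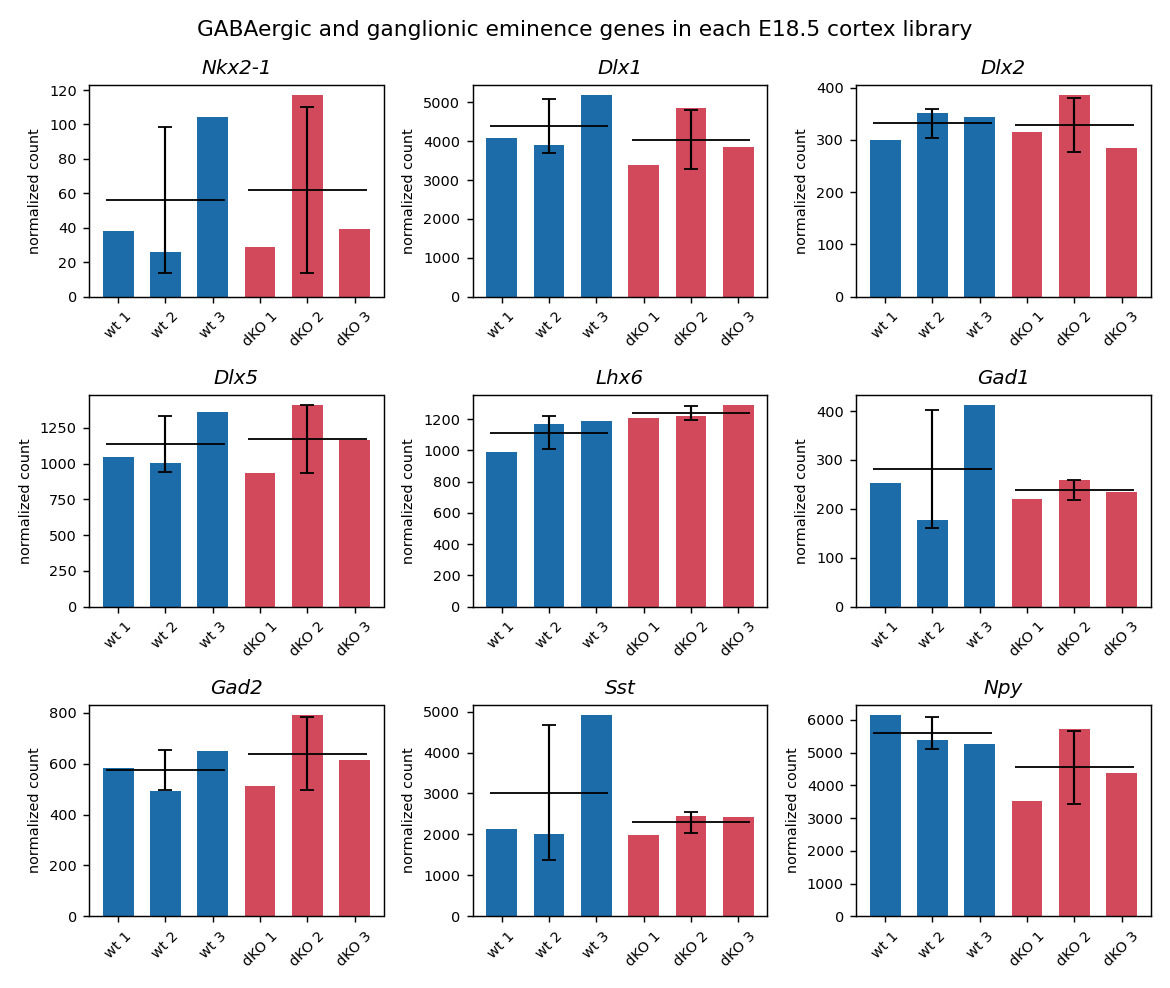
Normalized counts (vertical axes, each from 0 on its own scale) of the 9 genes in the 6 libraries (horizontal axes). Bars are single wild-type (blue) and dKO (red) libraries, horizontal lines are genotype means and whiskers are 1 SD (n = 3 embryos each). *Nkx2-1* reached 104 in wt replicate 3 and 117 in dKO replicate 2 and was at most 39.4 in the other libraries, while *Lhx6* was nearly level.

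The libraries held between 31837922 and 40896541 reads on the listed features. *Khdrbs1*, which encodes Sam68, had 7974 to 8436 normalized counts in wt and 114 to 197 in dKO cortex, and *Khdrbs3*, which encodes SLM2, had 12764 to 15215 and 6350 to 7060, so every library lay on the side of its label for both targeted genes. Pallial markers that define cortex were abundant in every library, with a summed level over the list of 105867 to 139028 normalized counts in wt and 118933 to 152480 in dKO cortex.

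Sequence upstream of 4 of these genes is shown because their library patterns differ: *Nkx2-1* was high in both of the libraries named above, *Gad1* and *Sst* stood out mainly in wt replicate 3, and *Npy* was not high in wt replicate 3. The sequences come from RefSeq (GRCm38.p6), are written 5′ to 3′ on the strand of the gene, and lie within 250 bases before a RefSeq start. Capitals mark a match to the letters of the CRE or, on either strand, of the TATA box. Bases that belong to an annotated exon were left out, except in the *Sst* window, which GENCODE release M21 places in the first exon of *Sst*. The *Nkx2-1* sequence is chr12:56536909-56537158 (minus strand), the *Gad1* sequence chr2:70561879-70562041 (plus strand), the *Sst* window chr16:23890874-23890903 (minus strand) and the *Npy* sequence chr6:49822460-49822709 (plus strand).
Nkx2-1: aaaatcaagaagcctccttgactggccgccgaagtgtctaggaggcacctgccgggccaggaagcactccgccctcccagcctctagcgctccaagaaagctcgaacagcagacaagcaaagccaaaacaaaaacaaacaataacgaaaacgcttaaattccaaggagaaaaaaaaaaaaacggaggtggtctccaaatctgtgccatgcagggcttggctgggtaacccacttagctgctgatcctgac
Gad1: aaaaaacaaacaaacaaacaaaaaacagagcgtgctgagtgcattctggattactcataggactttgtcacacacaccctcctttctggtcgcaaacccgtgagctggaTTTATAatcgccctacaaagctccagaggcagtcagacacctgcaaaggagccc
Sst: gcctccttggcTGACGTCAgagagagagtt
Npy: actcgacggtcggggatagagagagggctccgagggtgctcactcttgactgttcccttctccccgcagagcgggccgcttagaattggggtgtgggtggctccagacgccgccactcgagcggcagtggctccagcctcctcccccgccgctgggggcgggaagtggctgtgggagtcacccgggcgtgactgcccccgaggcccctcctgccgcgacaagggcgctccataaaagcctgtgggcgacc

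RefSeq starts were matched for 8 of the 9 genes, the missing entry being *Dlx5*. The CRE (TGACGTCA), the element bound by the cAMP-responsive factor CREB, was present for *Sst* alone among them, with its first base 48 bases before the start, and in 1.55% of 32851 mouse promoters of the same length. The letters of the TATA box (TATAAA, either strand) were present for *Gad1* alone, read on the opposite strand as TTTATA, and in 12.4% of promoters. This is a match of letters, and whether it acts as a TATA box was not tested. The homeodomain core TAATTA was found for none of the 8 genes and in 4.84% of promoters. These motifs do not overlap each other in the printed sequences.

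*Nkx2-1* (GSMG0008902, chr12:56531935-56536908 on mm10, minus strand) encodes the homeodomain factor of the medial ganglionic eminence. It had 38.0, 25.8 and 104 normalized counts in wt replicates 1, 2 and 3, and 29.0, 117 and 39.4 in dKO replicates 1, 2 and 3. One library of each genotype was high and the other 4 were low, so the genotypes overlapped almost completely. Wt replicate 3 was 3.27 times the mean of the other wt libraries, and dKO replicate 2 was 3.42 times the mean of the other dKO libraries. The gene was at the floor of the set, with 24 to 119 reads a library, yet the split exceeded counting error. The exact 95% Poisson intervals, with 2 mates taken as 1 fragment, were 79.5 to 134 in wt replicate 3 and 88.5 to 152 in dKO replicate 2, and the highest upper limit elsewhere was 63.1. These intervals cover counting error only.

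The genotype means of *Nkx2-1* were 56.0 ± 42.3 in wt and 61.9 ± 48.1 in dKO cortex (SD, n = 3). The log2 fold change was 0.13 (SE 0.60, 95% interval -1.22 to 1.48, adjusted p = 0.952 from limma). On the linear scale that interval spans 0.428-fold to 2.79-fold. Of the variance of its log2 values, 99.4% lay within the genotypes, beside a median of 80.0% over all features tested. The median of the 9 genes was 91.1%, and the lowest share was 55.2%, for *Lhx6*. The log2 fold change of *Nkx2-1* was 0.11 without wt replicate 3 and dKO replicate 2.

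*Dlx1* and *Dlx2* are convergently placed neighbours on chromosome 2, 9428 bases apart, and act redundantly in the differentiation and migration of GABAergic neurons. *Dlx1* (GSMG0021206, chr2:71529445-71533980, plus strand) had 4079, 3899 and 5189 normalized counts in wt and 3379, 4866 and 3853 in dKO replicates 1, 2 and 3. It was highest in the same libraries as *Nkx2-1*, at 1.30 and 1.35 times the mean of the others. Between genotypes it differed by a log2 fold change of -0.13 (SE 0.14, 95% interval -0.45 to 0.19, limma adjusted p = 0.750).

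*Dlx1* shares 3343 bases with the antisense gene *Dlx1as*, which had 4664, 4813 and 5806 normalized counts in wt and 4251, 4856 and 4424 in dKO cortex. The strand setting of the counting is not given in the sources used here, so the reads of this pair may not be separate. *Dlx2* (GSMG0022958, chr2:71543409-71546755, minus strand) had 301, 351 and 344 normalized counts in wt and 315, 386 and 284 in dKO cortex. It varied least of the 3 *Dlx* genes of the set (SD within the genotypes 0.18 on the log2 scale), with a log2 fold change of -0.02 (SE 0.15, 95% interval -0.36 to 0.31, adjusted p = 0.965 from limma). The whole gene lies within an unnamed feature with 69.6 to 154 normalized counts, and reads of these could likewise be shared.

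*Dlx5* (GSMG0032716, chr6:6877801-6882082, minus strand), which acts later than *Dlx1* and *Dlx2* in the same lineage, had 1043, 1002 and 1361 normalized counts in wt and 934, 1411 and 1168 in dKO cortex. Wt replicate 3 was 1.33 times and dKO replicate 2 was 1.34 times the mean of the other libraries of the genotype. Across genotypes the log2 fold change was 0.04 (SE 0.16, 95% interval -0.32 to 0.40, adjusted p = 0.945 from limma). Within the genotypes lay 99.3% of the variance, beside the median of 80.0% over all features. Its neighbour *Dlx6*, of the wider GABAergic list, had the same order at a wider spread, with 113, 51.6 and 263 normalized counts in wt and 103, 249 and 122 in dKO cortex. The *Dlx6os1* transcript that overlaps *Dlx6* had 1971, 1714 and 2810 in wt and 1703, 2921 and 2073 in dKO cortex. All 3 features of this locus were thus highest in wt replicate 3 and dKO replicate 2.

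*Lhx6* (GSMG0022700, chr2:36081953-36105409, minus strand) encodes the LIM homeodomain factor that interneurons of the medial eminence keep during and after migration. It had 989, 1165 and 1187 normalized counts in wt and 1209, 1222 and 1291 in dKO cortex. It was the 1 gene of the set whose genotypes did not overlap, every dKO library being above every wt library, beside 7.89% of all features with no overlap and higher dKO values and 8.48% with lower dKO values. The means were 1114 ± 109 and 1241 ± 44.0 (SD, n = 3), and the log2 fold change was 0.16 (SE 0.10, 95% interval -0.06 to 0.38, adjusted p = 0.550 from limma). The exact two-sided permutation p was 0.1, the smallest that 3 embryos against 3 can give. *Lhx6* also varied least within the genotypes, with an SD of 0.11 on the log2 scale against 1.03 for *Nkx2-1* and a median of 0.16 over features averaging 50 normalized counts or more.

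The enzymes of GABA synthesis are encoded by *Gad1* (GAD67) and *Gad2* (GAD65). *Gad1* (GSMG0021193, chr2:70562129-70602012, plus strand) had 253, 176 and 413 normalized counts in wt and 220, 259 and 235 in dKO cortex. Wt replicate 3 was 1.92 times the mean of the other wt libraries, whereas the dKO libraries lay close together and inside the wt range. Its log2 fold change was -0.15 (SE 0.26, 95% interval -0.73 to 0.43, adjusted p = 0.843 from limma), and it turned to 0.17 without wt replicate 3. *Gad2* (GSMG0020752, chr2:22622318-22693877, plus strand) had 585, 494 and 651 normalized counts in wt and 512, 793 and 615 in dKO cortex. Here dKO replicate 2 stood out more, at 1.41 times the mean of the other dKO libraries, against 1.21 times for wt replicate 3. The log2 fold change of *Gad2* was 0.14 (SE 0.17, 95% interval -0.23 to 0.50, adjusted p = 0.769 from limma) and turned to -0.031 without dKO replicate 2. The direction of both enzymes was thus set by single libraries.

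*Sst* (GSMG0015581, chr16:23889581-23890845, minus strand) encodes somatostatin, the peptide of a large class of interneurons from the medial eminence. It had 2126, 2015 and 4924 normalized counts in wt and 1997, 2451 and 2426 in dKO cortex. One wt library held 2.38 times the mean of the other wt libraries, and the remaining 5 libraries lay between 1997 and 2451. The counting interval of wt replicate 3, 4743 to 5109, was far from the other libraries. The means were 3021 ± 1648 and 2292 ± 255 (SD, n = 3), with a log2 fold change of -0.28 (SE 0.35, 95% interval -1.13 to 0.58, adjusted p = 0.786 from limma). Without wt replicate 3 the fold change was 0.14, and without it and dKO replicate 2 it was 0.089.

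*Npy* (GSMG0031866, chr6:49822710-49829503, plus strand) encodes neuropeptide Y, made by part of the *Sst* class and by other GABAergic neurons. It had 6155, 5391 and 5252 normalized counts in wt and 3530, 5732 and 4374 in dKO cortex. Wt replicate 3 was the lowest wt library, at 0.910 times the mean of the others, while dKO replicate 2 was 1.45 times the mean of the others and reached into the wt range. Its log2 fold change was -0.33 (SE 0.15, 95% interval -0.67 to 0.02, unadjusted p = 0.0612 and adjusted p = 0.457 from limma), the largest of the set. The exact two-sided permutation p was 0.3. Without dKO replicate 2 the fold change was -0.51, with an unadjusted p of 0.00157 and an adjusted p of 0.223 from limma. Without that library and wt replicate 3, a choice made after seeing the data, it was -0.55 (95% interval -0.86 to -0.25, unadjusted p = 0.00263, adjusted p = 0.533 from limma), where 7.14% of all features had an unadjusted *P*-value under 0.05.

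**Figure D2:**
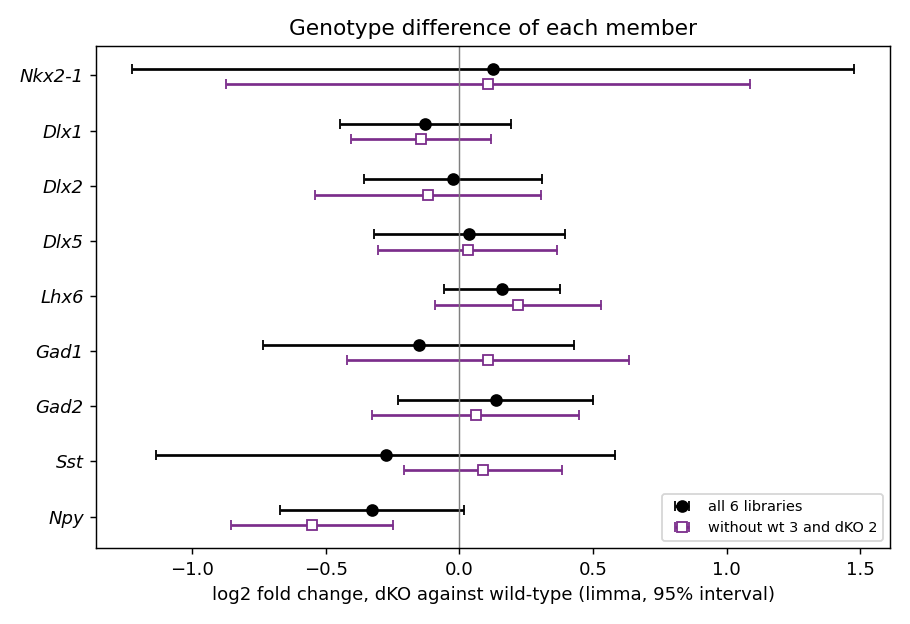
Log2 fold change of dKO against wt cortex (horizontal axis, limma, whiskers are 95% intervals) for each of the 9 genes (vertical axis), with all 6 libraries (filled circles) and without wt replicate 3 and dKO replicate 2 (open squares). All 9 intervals from the 6 libraries hold 0, *Sst* and *Gad1* change side when the 2 libraries are left out, and *Npy* moves from -0.33 to -0.55.

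Per kb of annotated exon, the mean over the 6 libraries ran from 8962 normalized counts for *Npy* through 3685 for *Sst*, 780 for *Dlx1*, 510 for *Dlx5*, 245 for *Lhx6*, 116 for *Dlx2*, 104 for *Gad2* and 34.0 for *Gad1* to 20.7 for *Nkx2-1*. By this measure both peptides stood above the transcription factors, and both synthesis enzymes stood near the low end. The length used is the union of all annotated exons, not that of an expressed transcript. It is 7639 bases for *Gad1* and 5876 for *Gad2*, against 721 for *Sst* and 566 for *Npy*. For *Dlx1* it is 5396 bases, longer than the counted feature, and the order depends on these lengths. Neighbours in this order overlapped over the libraries for *Npy* and *Sst*, for *Dlx2* and *Gad2*, and for *Gad1* and *Nkx2-1*. *Dlx1* and *Dlx5* did not, at 626 to 962 against 413 to 623. *Lhx6*, at 206 to 269, was apart from both of its neighbours, *Dlx5* above it and *Dlx2* below it at 99.5 to 135.

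The libraries were compared next on marker lists of tissues that border the cortex, each list being given as the median log2 deviation of its tested genes from the mean of the 6 libraries. Wt replicate 3 stood at 0.26 and dKO replicate 2 at 0.22 for the 9 genes, and the other 4 libraries lay between -0.29 and -0.09. For 17 striatal projection neuron markers the same libraries stood at 0.90 and 0.93, and the others between -0.76 and 0.00. In 12 of these 17 genes wt replicate 3 was the highest wt library and dKO replicate 2 the highest dKO library. That share is 70.6%, beside 13.9% of all features. *Ikzf1*, among the 12, reached the filter average of 10 only through these libraries. The 12 include *Drd2*, the D2 dopamine receptor, with 40.9, 9.67 and 134 normalized counts in wt and 17.2, 162 and 60.3 in dKO cortex. *Isl1*, a transcription factor of striatal and cholinergic neurons, had 17.1, 1.07 and 95.6 in wt and 3.63, 115 and 25.5 in dKO cortex.

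The other 5 striatal markers, *Drd1*, *Ppp1r1b*, *Rgs9*, *Pde10a* and *Meis2*, did not have this order. The summed level of the list was 14328 to 15955 normalized counts in wt and 14864 to 16625 in dKO cortex. The 2 striatal genes with the smallest *P*-values between genotypes were *Pde10a*, a phosphodiesterase (log2 fold change 0.19, limma adjusted p = 0.438), and *Pdyn*, the prodynorphin gene (-0.79, adjusted p = 0.564 from limma). With the striatal deviation of each library as a covariate, the SE of the genotype difference was 0.28 for *Nkx2-1*, 0.20 for *Sst*, 0.086 for *Dlx5* and 0.069 for *Dlx1*. Without the covariate these were 0.60, 0.35, 0.16 and 0.14. For *Gad1*, *Gad2* and *Npy* it was 0.20, 0.11 and 0.13, against 0.26, 0.17 and 0.15. For *Dlx2* and *Lhx6* it stayed at 0.15 and 0.099. With the covariate, *Npy* had a fold change of -0.32 with an unadjusted p of 0.0307 and an adjusted p of 0.323 from limma. The part of dissection or of tissue bordering the cortex in these library differences was not tested.

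**Figure D3:**
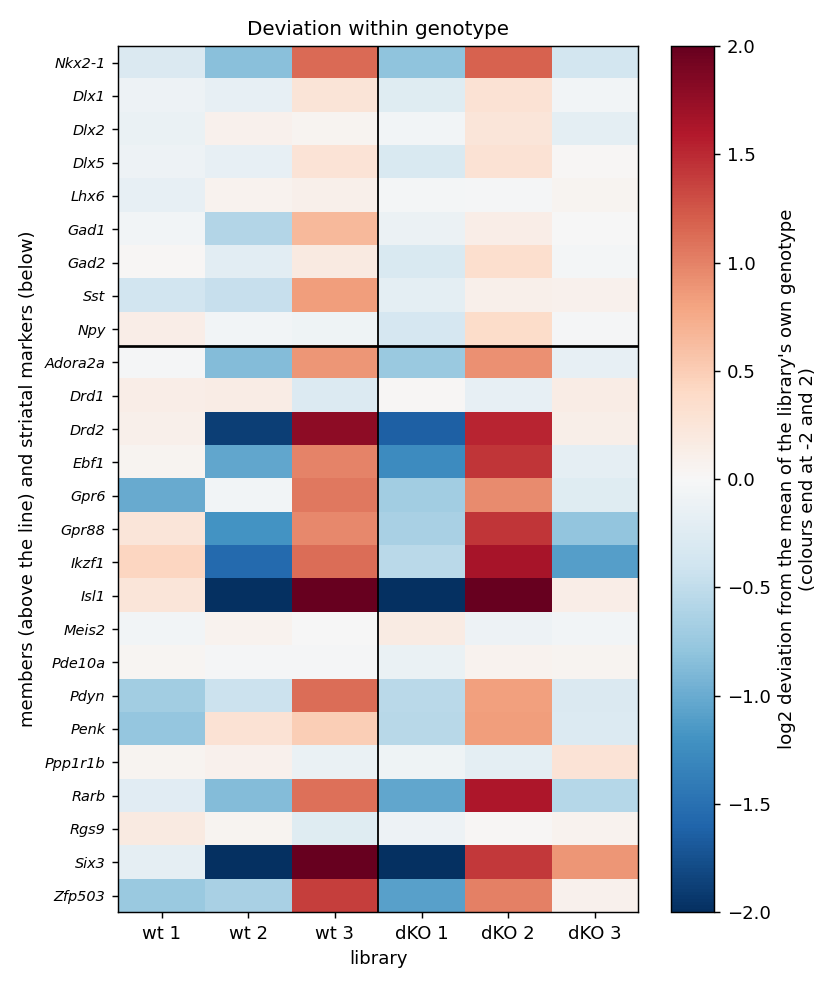
Deviation of log2(normalized count + 1) from the mean of the library's own genotype (colour, ending at -2 and 2) for the 9 genes (above the line) and 17 striatal markers (below it) in the 6 libraries. Wt replicate 3 and dKO replicate 2 are red for *Nkx2-1* and for most striatal markers, while *Lhx6*, *Drd1*, *Meis2*, *Pde10a*, *Ppp1r1b* and *Rgs9* are pale throughout.

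Markers of other tissues did not all have this order. Of 8 pallidal and basal forebrain markers, 3 were tested, at 0.42 in wt replicate 3, 0.52 in dKO replicate 2 and between -0.53 and 0.29 elsewhere, and *Chat*, *Gbx1* and *Slc18a3* were under 10 normalized counts in every library. Of the 3, *Isl1*, which is also in the striatal list, and *Slc5a7*, at 8.59 to 18.8 normalized counts, had the order. *Zic1* did not, with 962, 1720 and 1172 in wt and 1561, 1018 and 1595 in dKO cortex. The genes of that list with the smallest *P*-values were *Isl1* and *Zic1*, the latter with a log2 fold change of 0.13 (adjusted p = 0.853 from limma). For 4 of 8 choroid plexus markers the libraries stood at 1.10 and 0.75, against -0.85 to -0.13 elsewhere, with *Folr1* and *Kcnj13* under 10 in all. *Ttr* and *Kl* averaged under 10 and were not tested. *Otx2* and *Clic6* reached the filter average of 10 only through wt replicate 3 and dKO replicate 2. Their high place in these libraries is thus partly set by the filter, and nothing is drawn from this median. For 7 thalamic markers they stood at -0.03 and 0.18, within or next to the range of the others (-0.14 to 0.17), and *Gbx2* was under 10 in all. *Rgs16* (0.44, adjusted p = 0.309 from limma) and *Tcf7l2* (0.43, adjusted p = 0.560 from limma) had the smallest *P*-values there.

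Of 10 hypothalamic markers, 4 were tested, at 0.52 in wt replicate 3 and -0.04 in dKO replicate 2, and *Agrp*, *Avp*, *Hcrt*, *Oxt*, *Pmch* and *Sim1* were under 10 in all libraries. *Otp*, a transcription factor of hypothalamic neurons, had 60.5 normalized counts in wt replicate 3, 2.15 in wt replicate 2 and 0 in the other 4 libraries. *Trh*, the thyrotropin-releasing hormone gene, had a log2 fold change of -0.82 (adjusted p = 0.353 from limma). Meningeal fibroblast markers (7 genes) stood at 1.21 in wt replicate 3 and at -0.24 in dKO replicate 2. *Otp* and the meningeal gene *Aldh1a2* reached the filter average of 10 only through wt replicate 3. Wt replicate 3 therefore also differed from dKO replicate 2 in markers outside the striatal list.

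Pallial glutamatergic markers (12 genes) stood at -0.26 in wt replicate 3 and 0.00 in dKO replicate 2, against -0.17 to 0.22 elsewhere. This list had a median log2 fold change of 0.22 between the genotypes. Measured from the mean of its own genotype, each of these libraries was the lowest of its genotype, at -0.13 and -0.07. Endothelial and mural markers (8 genes) stood at 0.28 and -0.04 in these libraries, erythroid markers (5 genes) at 0.16 and 0.00, and microglial markers (7 genes) at 0.33 and -0.15. At an unadjusted *P*-value under 0.05 from limma, 5 of 12 pallial genes were higher in dKO cortex, beside 4.92% of all features, and 3 of 8 endothelial and mural and 2 of 7 meningeal genes were lower, beside 6.58% of all features. The 2 meningeal genes rest mostly on wt replicate 3. There *Dcn* had 138 normalized counts against 9.08 to 29.5 elsewhere, and *Aldh1a2* had 77.1 against 0 to 10.7. No gene of the marker lists passed at an adjusted *P*-value under 0.05 with limma or edgeR, while DESeq2 called *Emx1*, a pallial transcription factor, and *Flt1*, an endothelial receptor.

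**Figure D4:**
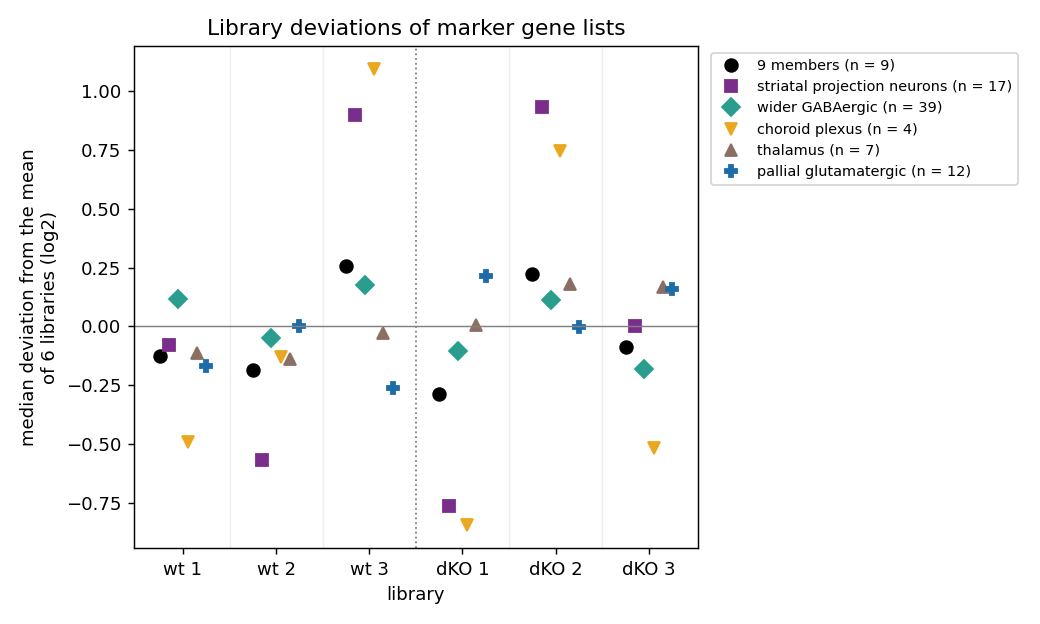
Median log2 deviation from the mean of the 6 libraries (vertical axis) of the tested genes of 6 lists (symbols) in each library (horizontal axis, the dotted line separates wild-type from dKO). Wt replicate 3 and dKO replicate 2 lie at 0.90 and 0.93 for striatal markers and at 0.26 and 0.22 for the 9 genes, above every other library.

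A wider list of 45 genes of the GABAergic lineage showed how far the pattern of the 9 extends. Of these, 39 were tested, *Nkx6-2* and *Pvalb* were under 10 normalized counts in every library, and none was called at an adjusted *P*-value under 0.05 by limma or edgeR, while DESeq2 called 1, *Calb1*. At an unadjusted *P*-value under 0.05, 2 of the 39 were higher and 6 were lower in dKO cortex, beside 4.92% and 6.58% of all features, and the median log2 fold change was -0.05. The order with wt replicate 3 and dKO replicate 2 highest was found in 15 of the 39 (38.5%), beside 13.9% of all features. Over the 39 genes the median deviation was 0.18 in wt replicate 3 and 0.11 in dKO replicate 2, against -0.18 to 0.12 elsewhere. The 9 tested transcription factors of the eminences in this list had medians of 0.38 and 0.50, against -0.31 to 0.09 elsewhere. Only 3 of these 9 (33.3%) had that order. Measured from the mean of their own genotype, wt replicate 3 stood at 0.14 beside 0.08 in wt replicate 1, and dKO replicate 2 stood at 0.45.

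Among other transcription factors of the eminences (9 tested), *Sp8*, which marks the lateral and caudal eminences, had 557 ± 114 normalized counts in wt and 401 ± 31.5 in dKO cortex (SD, n = 3), a log2 fold change of -0.46 (adjusted p = 0.352 from limma). *Olig2*, of eminence progenitors and the oligodendrocyte lineage, had 2601 ± 594 and 1659 ± 481 (-0.67, adjusted p = 0.394 from limma). Among factors of postmitotic interneurons (9 tested), *Etv1* had 677 ± 76.4 and 515 ± 32.4 (-0.39, adjusted p = 0.335 from limma). *Sox6*, which acts after *Lhx6* in interneurons of the medial eminence, had 694 ± 67.5 and 842 ± 57.6 (0.28, adjusted p = 0.394 from limma). *Sp8*, *Etv1* and *Sox6* had no overlap between the genotypes, and *Sox6* lay on the same side as *Lhx6*. Over the wider list, 3 of the 39 genes had no overlap with higher dKO values, beside 7.89% of all features. Another 4 of the 39 had no overlap with lower dKO values, beside 8.48% of all features.

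Of 4 genes of GABA packaging and uptake, none had a higher mean log2 value in dKO cortex. The GABA transporter gene *Slc6a11* (GAT3) had 1625 ± 262 normalized counts in wt and 1184 ± 134 in dKO cortex (-0.45, adjusted p = 0.318 from limma). Of 8 receptors and surface proteins of migrating interneurons, the 2 CXCL12 receptors had the smallest *P*-values. *Ackr3* had 1244 ± 250 and 1613 ± 77.4 (0.39, adjusted p = 0.363 from limma), and *Cxcr4* had 2257 ± 288 and 2589 ± 260 (0.20, adjusted p = 0.504 from limma). The *Ackr3* values did not overlap between the genotypes and those of *Cxcr4* did.

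Of 9 subtype peptides and calcium-binding proteins, *Calb1*, the calbindin gene, had 331, 256 and 536 normalized counts in wt and 208, 228 and 168 in dKO cortex. Its genotypes did not overlap, although wt replicate 3 and dKO replicate 2 were again the highest, and the log2 fold change was -0.83 (SE 0.25, adjusted p = 0.324 from limma). *Cort*, which encodes cortistatin, a peptide related to somatostatin, had 44.7 ± 6.87 in wt and 26.1 ± 3.48 in dKO cortex (-0.75, adjusted p = 0.400 from limma), also without overlap. *Sst* itself did not share that separation.

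The genes whose levels most resembled the mean standardised profile of the 9 over the 6 libraries were *Tmem88* (Pearson r = 0.993), *H19* (0.989), *Tm7sf3* (0.986), *P4ha3* (0.986) and *2510002D24Rik* (0.983), the top 5 of 12724 features with a symbol and a mean of at least 50. These r values rest on 6 libraries that fall into separate clusters, were the highest of many, and are a description only. *H19*, an imprinted noncoding RNA, had 1662, 1584 and 3365 normalized counts in wt and 1290, 2744 and 1794 in dKO cortex. The profile itself was highest in wt replicate 3 (0.96) and dKO replicate 2 (0.87). All 5 genes were highest in the same libraries of each genotype, which follows from their choice by this profile and is no separate result.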

How the data were processed

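PolyA+ RNA of E18.5 cortex (TruSeq Stranded mRNA kit, paired-end reads) from 3 wild-type and 3 dKO embryos was compared, with groups taken from the genotype labels. The authors assigned reads to FAST database genes and deposited 1 signal value per gene, the read count divided by a DESeq2 size factor. The submitters' processing notes name FastQC, Picard, SAMtools, STAR 2.7.5a, DESeq2 and mm10. The counting program and its strand setting are not given in the sources used here. In each library, 100% of the deposited values were whole multiples of the smallest (tolerance 0.01 reads), which gave the reads behind them. The value of 1 read was 0.877 to 1.16 normalized counts, and 8.48% to 9.62% of reads lay on features without a symbol, which were kept. Counts of 2 reads were 2.11 to 2.62 times as frequent as counts of 1, so mates appear to be counted singly.

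Genotypes were compared with limma 3.58.1 (R 4.3.3, trend and robust options) on log2 of the normalized count plus 1, for the 18970 features averaging 10 or more. This scale understates the change of low genes. Single genes were also compared by exact two-sided permutation tests. Alternatives were edgeR 4.0.16 and DESeq2 1.42.0 on the recovered reads, other pseudocounts, filters and scalings, a replicate block, a striatal covariate and libraries left out. Exon lengths and strands came from GENCODE M21 and promoters from RefSeq. The members and marker lists were chosen with earlier results of these data known. Named genes outside the set are the 2 tested genes with the smallest *P*-value per role or ventral, thalamic or hypothalamic list. The 5 most alike in profile are named too. *Drd2*, *Isl1*, *Zic1*, *Dlx6*, *Dlx6os1* and *H19* were given library values after these were seen. Also named after their values were seen were *Emx1*, *Flt1*, *Slc5a7*, *Ikzf1*, *Otx2*, *Clic6*, *Dcn* and *Aldh1a2*. Of 146 list genes, 5 had no feature matched by symbol and were not analysed here. Results on some single genes of the lists are not reported here.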

Additional observations from a re-analysis of the deposited data

How the results depend on the processing

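Neither limma, edgeR nor DESeq2 called any of the 9 genes at an adjusted *P*-value under 0.05, and the count was 0 in all 19 alternatives. At an unadjusted *P*-value under 0.05, 1 gene (*Npy*) passed with quantile normalization, DESeq2, the striatal covariate, and without both wt replicate 3 and dKO replicate 2, and 0 to 1 passed when single libraries were left out (1, again *Npy*, without dKO replicate 2). DESeq2 called 1 wider GABAergic gene (*Calb1*); the cause was not tested. The log2 fold change of *Dlx2* was 0.024 with quantile normalization, and those of *Sst* and *Gad1* were 0.089 and 0.11 without both libraries. With each library left out, the fold change ranged from -0.46 to 0.70 for *Nkx2-1*, -0.11 to 0.19 for *Dlx5*, -0.15 to 0.074 for *Dlx2*, -0.50 to 0.14 for *Sst*, -0.44 to 0.17 for *Gad1* and -0.031 to 0.28 for *Gad2*. *Dlx1*, *Lhx6* and *Npy* kept their direction in all 19, with *Npy* between -0.55 and -0.16.

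With the replicate number as a replicate block, 0 of the 9 genes were called, and the calls over all features went from 19 to 9. Deviations of same-numbered libraries correlated at 0.10, -0.23 and -0.08, and those of differently numbered libraries between -0.14 and 0.21. The labels name no pairing, and with 3 libraries a genotype these values cannot decide whether the numbers pair the embryos. The paper describes dKO pups from intercrosses of mice without *Slm2* that were heterozygous for *Sam68*. Such crosses give no wild-type littermates, so litter and genotype cannot be told apart under that breeding. Over all features, DESeq2 called 202, limma without the trend and robust options 7, and limma 7 to 46 with a library left out. With 3 embryos a genotype, the precision is limited by the spread between embryos, and the interval of *Nkx2-1* was the widest of the 9.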
